A study of Mus musculus with 61 samples.

Results

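Collagen genes encode the chains of the triple-helical proteins that carry load in connective tissue. They were taken here as every gene in the deposited muscle count table whose symbol is Col, a number, the letter a and a number. This rule found 44 of the 19462 genes in the table. Of these, 42 were among the 16682 genes that passed the filter on low counts and were tested. The cartilage collagen genes Col9a3 and Col10a1 did not pass it, at means of 0.170 and 0.0935 CPM (counts-per-million reads, scaled by library size). The 44 genes were grouped by textbook structure into 11 fibrillar, 6 basement membrane, 6 beaded filament, 9 fibril-associated (FACIT), 2 multiplexin, 4 transmembrane, 4 network and anchoring and 2 unclassed collagens.

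RNA was measured in skeletal muscle of the inbred founder strains of the Diversity Outbred mouse population. Of the 61 libraries, 8 each were labelled AJ, B6, 129, NZO and WSB, and 7 each NOD, Cast and PWK. All mice shared a high-fat, high-sugar diet, which the labels give as 45 percent fat. None of the strains is a labelled control, and each was set against the mean of the other 7. The labels name no muscle, sex, age or batch. They also do not tie each library to its own animal, and p-values here measure library-to-library spread, which may be technical. NZO is a polygenic obese strain, NOD is prone to autoimmune diabetes, and Cast, PWK and WSB descend from wild mice.

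In muscle, fibroblasts of the connective tissue sheaths make most fibrillar collagen, in which types I and III form the bulk of the fibrils and type V governs their diameter. Each muscle fibre and capillary is wrapped in a basement membrane built on a type IV network, and type VI microfibrils link that membrane to the fibrils around it. Fibril-associated collagens sit on the fibril surface, several of them at tendon and at the muscle-tendon junction.

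The 250 bases before the start of transcription are shown for 4 members that stand for the strain patterns described below. Col3a1, a fibril chain, and Col6a3, a microfibril chain, were among the genes that were low in Cast. Col7a1 was low in Cast and PWK, and Col4a6 was low in AJ. The windows come from RefSeq promoters of GRCm38.p6 and are written 5′ to 3′ on the gene's strand. Capitals mark matches, on either strand, to the TATA motif TATAAA, the CCAAT motif CCAAT and the GC box GGGCGG. The windows are chr1:45311288-45311537 (plus strand) for Col3a1, chr1:90843972-90844221 (minus strand) for Col6a3, chr9:108953336-108953585 (plus strand) for Col7a1 and chrX:141474077-141474326 (minus strand) for Col4a6.
Col3a1: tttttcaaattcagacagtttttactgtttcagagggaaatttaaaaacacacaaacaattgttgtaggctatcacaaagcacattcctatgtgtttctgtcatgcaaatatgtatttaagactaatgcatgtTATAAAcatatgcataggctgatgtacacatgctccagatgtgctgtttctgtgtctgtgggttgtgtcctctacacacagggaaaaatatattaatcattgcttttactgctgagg
Col6a3: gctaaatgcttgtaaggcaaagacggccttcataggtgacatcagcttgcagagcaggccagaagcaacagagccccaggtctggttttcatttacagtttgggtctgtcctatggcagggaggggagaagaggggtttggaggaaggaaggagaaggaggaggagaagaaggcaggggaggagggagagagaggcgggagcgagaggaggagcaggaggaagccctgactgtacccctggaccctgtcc
Col7a1: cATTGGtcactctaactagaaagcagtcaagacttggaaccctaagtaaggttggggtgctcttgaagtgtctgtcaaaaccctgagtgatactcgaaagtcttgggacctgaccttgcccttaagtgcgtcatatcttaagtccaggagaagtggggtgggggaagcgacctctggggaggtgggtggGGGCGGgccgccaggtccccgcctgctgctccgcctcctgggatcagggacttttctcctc
Col4a6: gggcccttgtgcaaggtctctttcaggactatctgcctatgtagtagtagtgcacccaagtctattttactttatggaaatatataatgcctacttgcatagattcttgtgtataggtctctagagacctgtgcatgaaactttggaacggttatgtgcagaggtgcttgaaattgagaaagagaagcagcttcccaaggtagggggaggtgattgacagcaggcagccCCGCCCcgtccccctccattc
Col3a1 held a TATA match, Col7a1 a CCAAT match and a GC box, Col4a6 a GC box, and Col6a3 none of the motifs. RefSeq gave 38 windows for 35 of the collagen genes. The TATA motif was in 5 of these windows (13.2%), against 12.4% of all 32851 promoter windows of that length. The CCAAT motif was in 13 (34.2%, against 33.8%) and the GC box in 22 (57.9%, against 32.7%).

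Total estimated counts were 17.1 M to 65.2 M per library, with a median of 33.7 M, and collagen genes held 0.0460 to 0.469% of them, with a median of 0.220%. All 10 muscle fibre markers were detected in every strain, with a summed level of 112400 to 211440 CPM. A ribosomal RNA gene, Rn18s-rs5, held 46.3% of the counts of library B6_5, against at most 9.76% elsewhere. Keratinocyte markers summed to over 150 CPM in 6 libraries, B6_6, NOD_5, Cast_8, PWK_3, PWK_9 and WSB_7. Libraries Cast_1, Cast_5 and Cast_6 stood apart in collagen: their fibrillar genes summed to 256, 119 and 67.7 CPM, against 593 to 1108 CPM in the other 4 Cast libraries. The same libraries had 208, 159 and 234 CPM of satellite cell markers, against 81.9 to 109 CPM in the other 4. Of these markers, Sdc4 had 123 to 192 CPM in them, against 32.1 to 63.9 CPM in the other 4. Pax7 and Myf5 were not raised in them, at 0.403 to 1.25 and 0.929 to 2.59 CPM, against 0.888 to 1.61 and 1.81 to 4.02 CPM. The Cast comparison was therefore repeated without Cast_1, Cast_5 and Cast_6. In bulk tissue, fewer cells of a type and less RNA per cell cannot be told apart.

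Among the 8 strains, 41 of the 42 collagen genes tested differed in level (97.6%), where 85.5% of all genes did so by edgeR's quasi-likelihood test at an adjusted p under 0.05. The exception was Col18a1, a basement membrane zone collagen whose end fragment is endostatin (adjusted p = 0.98). Strain means spanned a median of 1.54 log2 units for the collagens and 0.91 for all genes tested, and 32 collagens spanned at least 1 log2 unit. The median span was 2.39 for beaded filament, 1.72 for fibrillar, 1.33 for fibril-associated and 0.64 for basement membrane genes. Cast had the lowest mean of the 8 strains for 22 of the 42 genes. NZO had the lowest for 0 of them, and AJ, NZO and PWK had the highest for 9 each.

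**Figure D1:**
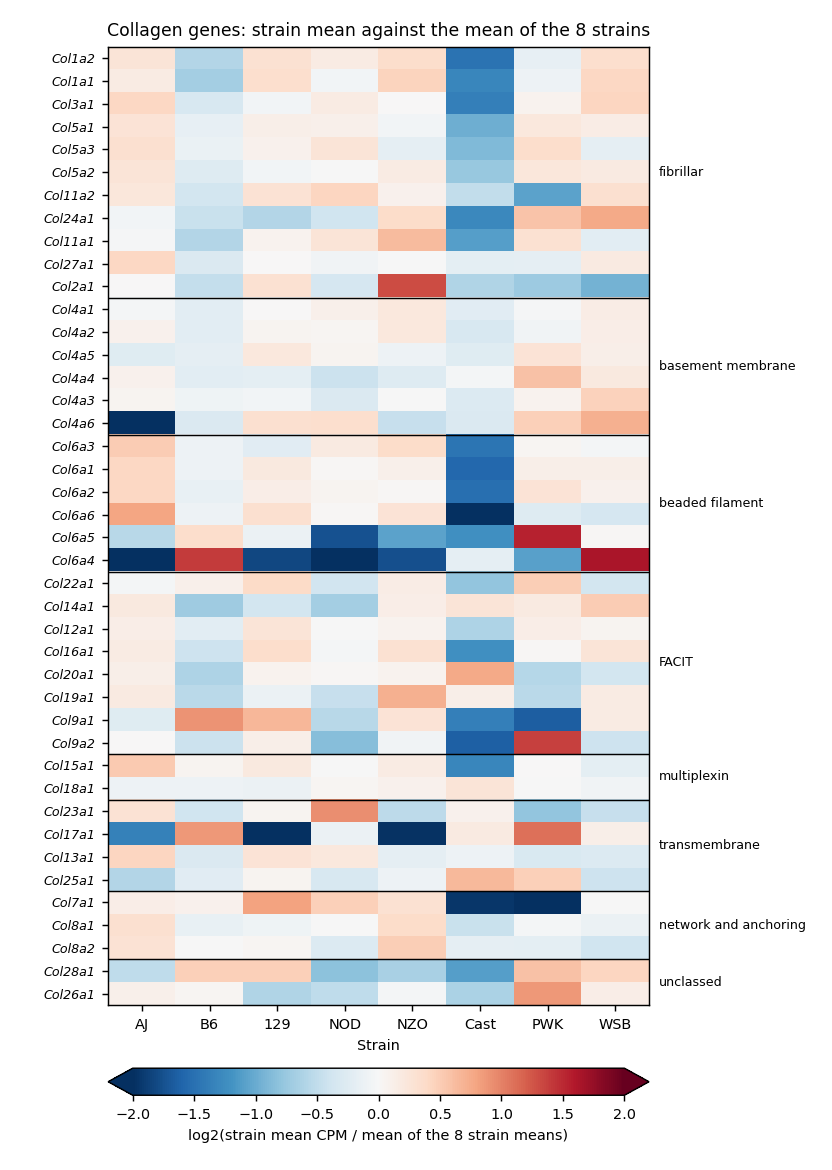
Each cell is the log2 ratio of a strain's mean CPM to the mean of the 8 strain means, for the 42 tested collagen genes in rows, grouped by class, and the strains in columns; colours end at 2 in either direction. Cast is low across the fibrillar and beaded filament rows and near the mean in the basement membrane rows, and Col4a6 in AJ and Col7a1 in Cast and PWK are among the darkest blue cells, as are the low-level genes Col6a4 and Col17a1 in several strains.

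Per kilobase of exon, the 2 chains of type I, the main fibril collagen, the chain of type III and the 2 ubiquitous chains of type IV were the most abundant collagens. Their levels, averaged over strains, were 48.8 CPM per kilobase for Col1a1, 31.8 for Col1a2, 31.9 for Col3a1, 31.3 for Col4a1 and 25.8 for Col4a2. Col6a1, the shortest type VI chain gene, followed at 22.9 CPM per kilobase. At the other end, Col25a1 and Col6a4 stood at 0.0181 and 0.0145 CPM per kilobase, and 26 libraries had no count for Col6a4.

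Fibrillar collagens as a summed level averaged 501 ± 376 CPM in Cast (SD, n = 7), and 882 ± 98.2 CPM in B6, the next lowest strain (SD, n = 8). The other 6 strains averaged 1202 to 1553 CPM. The Cast libraries ran from 67.7 to 1108 CPM around a median of 593 CPM, against 665 to 2843 CPM in all other libraries, so 5 of 7 Cast libraries lay below every other library. Summed basement membrane collagens averaged 348 ± 51.0 CPM in Cast and 361 to 481 CPM in the other strains, and these groups overlapped. Summed beaded filament collagens averaged 107 ± 74.3 CPM in Cast, against 283 to 420 CPM in the other strains. Their Cast range, 18.2 to 215 CPM, met the range of the others, 184 to 489 CPM, only in the top Cast library, Cast_7.

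**Figure D2:**
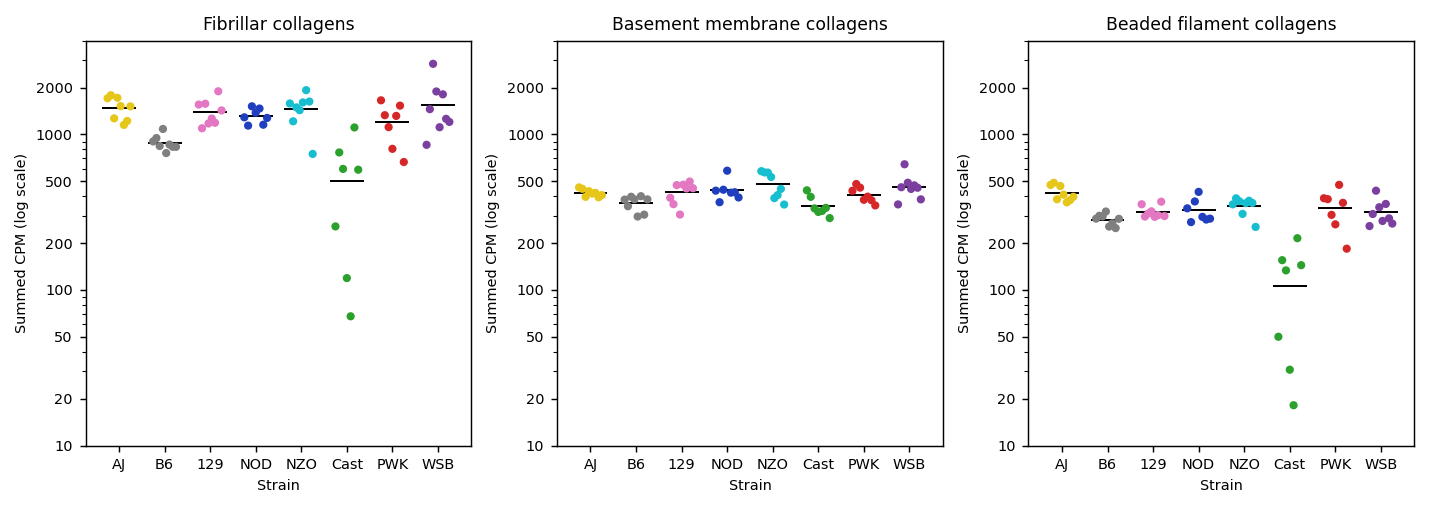
Summed CPM per library (log scale) of fibrillar, basement membrane and beaded filament collagen genes by strain; points are libraries and lines strain means. Cast spreads from 67.7 to 1108 CPM in the fibrillar panel and from 290 to 437 CPM in the basement membrane panel.

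In Cast, 24 of 42 collagens were lower than the mean of the other strains (57.1%, against 27.9% of all genes tested) and 3 were higher (7.14%, against 33.8%). Over all 7 Cast libraries, the median log2 difference of the collagens was -0.66, and that of all genes tested was 0.04. Without Cast_1, Cast_5 and Cast_6, 23 were lower and 3 higher, and 16 of the 27 called differences moved by over 1.5 times. The shares of all genes given above are from the fit with all 7 Cast libraries, and none are given for the reduced fit. With all libraries the lower genes were 9 of 11 fibrillar, 4 of 6 beaded filament and 5 of 8 tested fibril-associated genes. They included 2 of 6 basement membrane genes, the type IV chains Col4a1 and Col4a2, by small amounts. Across these groups the fibroblast markers moved too: 10 of 12 were lower in Cast and 0 higher, with a summed level of 908 to 1765 CPM in Cast, against 1305 to 2534 CPM in the others. Leaving out Cast_1, Cast_5 and Cast_6, 8 of 12 were lower. Of the smooth muscle and pericyte markers 8 of 10 were lower, with a sum of 450 to 718 CPM in Cast, against 717 to 977 CPM elsewhere, and of the endothelial markers 7 of 10, with 358 to 404 CPM, against 418 to 583 CPM. Tendon markers were lower for 7 of 10 and higher for 1, with 240 to 460 CPM in Cast, against 342 to 1084 CPM. Schwann cell markers were lower for 5 of 10 and higher for 1, with 67.4 to 187 CPM in Cast, against 83.3 to 351 CPM. Without the 3 libraries 5 smooth muscle, 8 endothelial, 5 tendon and 0 Schwann cell markers were lower. The part of the smooth muscle, endothelial and Schwann cell markers in the collagen differences was not tested. With the summed fibroblast and tendon markers as covariates, 17 of the 27 Cast calls remained and 10 were lost.

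Among fibril chains in Cast, Col1a2, the second chain of type I (chromosome 6, 4504814 to 4541544 on GRCm38, plus strand), had 12.6 to 299 CPM around a median of 156 CPM. In all other libraries it had 194 to 1055 CPM. Its log2 difference was -1.56 (SE 0.27, adjusted p = 1.14e-06), and 5 of 7 Cast libraries lay below every other library. Col3a1, the type III chain (chromosome 1, 45311538 to 45349706), had 4.94 to 317 CPM in Cast around a median of 139 CPM, against 158 to 594 CPM elsewhere, and 4 Cast libraries lay below all others. Its log2 difference was -1.47 (SE 0.31, adjusted p = 4.26e-05). Col1a1, the main type I chain, had 6.94 to 322 CPM in Cast around a median of 139 CPM, against 158 to 958 CPM elsewhere, a log2 difference of -1.38 (SE 0.31, adjusted p = 0.000126). The type V chains Col5a1, Col5a3 and Col5a2, which set fibril diameter, fell by 1.07, 0.97 and 0.82. Col11a1, a fibril chain best known from cartilage, fell by 1.16, and Col24a1, a minor fibrillar chain, fell by 1.32. Without Cast_1, Cast_5 and Cast_6 the differences of Col1a2, Col3a1 and Col1a1 were -0.96, -0.77 and -0.70, still past the threshold (adjusted p = 0.000337, 0.00104 and 0.0166 by edgeR). Those of Col5a1, Col5a3, Col5a2, Col11a1 and Col24a1 were then -0.53, -0.51, -0.44, -0.64 and -1.0, also past it. With fibroblast and tendon markers as covariates, Col1a1 no longer passed (-0.55, adjusted p = 0.128), nor did Col5a2 (-0.27, 0.0711) and Col11a1 (-0.34, 0.152).

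The type VI chains, whose defects cause human Bethlem and Ullrich muscle disease, were lower in Cast for 4 of the 6 genes, and Col6a4 and Col6a5 were not called. Col6a1 (chromosome 10, 76708792 to 76726168, minus strand) had 4.67 to 65.1 CPM in Cast around a median of 43.3 CPM, against 61 to 157 CPM in all other libraries. In 6 of 7 Cast libraries it lay below every other library, and its log2 difference was -1.69 (SE 0.22, edgeR adjusted p = 2.2e-09). Col6a3 had 7.14 to 73.6 CPM in Cast around a median of 43.3 CPM, against 56.1 to 178 CPM elsewhere, again with 6 of 7 libraries below all others. Its log2 difference was -1.57 (SE 0.20), and that of Col6a2 was -1.62 (SE 0.23). Col6a6, an alternative chain that can take the place of the third chain, showed the largest fall of any collagen in Cast, by 2.11 (SE 0.33, adjusted p = 1.99e-07). Without the 3 libraries Col6a1, Col6a2, Col6a3 and Col6a6 fell by 1.09, 0.99, 0.99 and 1.48, and all 4 stayed past the threshold. They also stayed past it with the fibroblast and tendon covariates, at -1.12, -1.04, -1.08 and -2.39.

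**Figure D3:**
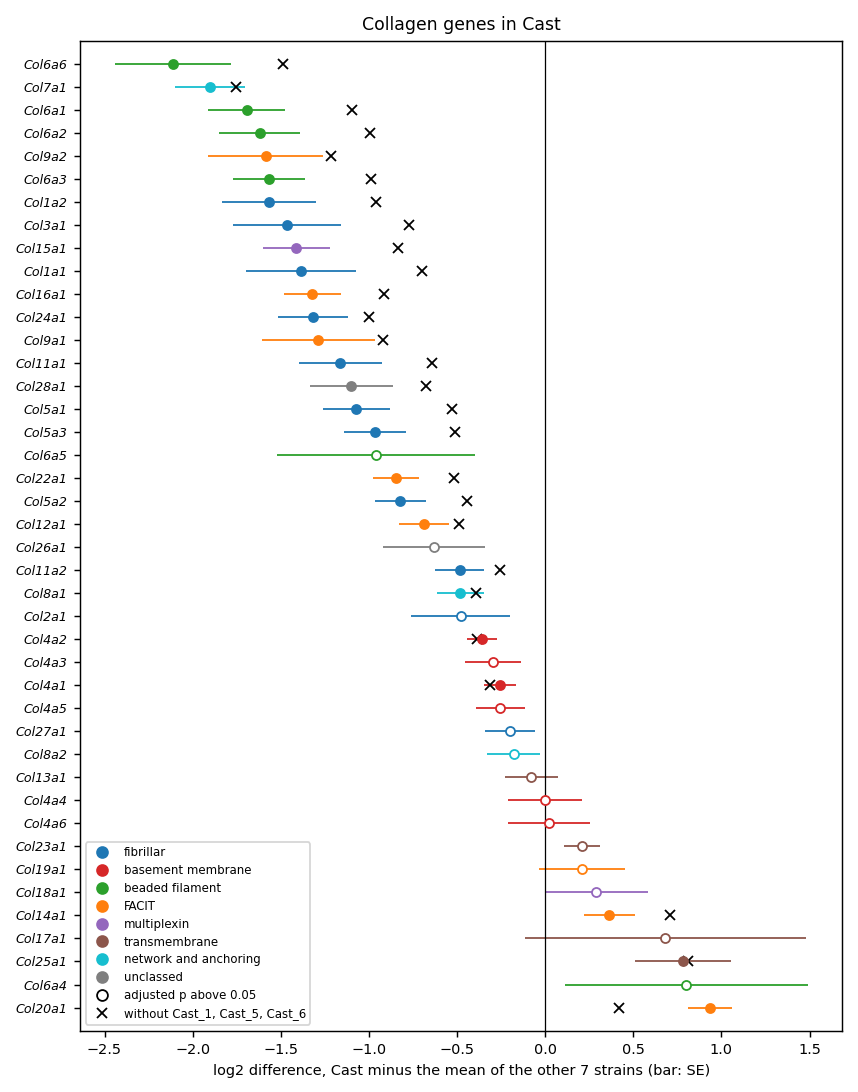
log2 difference of each tested collagen gene, Cast minus the mean of the other 7 strains, with its SE; filled points passed an adjusted p of 0.05, colours give the class, and crosses give the called genes without Cast_1, Cast_5 and Cast_6. Col6a6 is lowest at -2.11 and Col20a1 highest at 0.94; most fibrillar and beaded filament genes move toward 0 without the 3 libraries.

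The ubiquitous basement membrane chains differed by small amounts. Col4a1, a chain of the ubiquitous type IV trimer, had 161 to 254 CPM in Cast around a median of 189 CPM, and Cast libraries lay within the range of the others. Its log2 difference in Cast was -0.26 (SE 0.092, edgeR adjusted p = 0.0145), and the call was lost without library Cast_8 (adjusted p = 0.0565). Col4a2, its partner, differed by -0.36 (SE 0.086, adjusted p = 0.000275). Neither passed with the fibroblast and tendon covariates (-0.03, adjusted p = 0.835, and -0.21, adjusted p = 0.1), while without Cast_1, Cast_5 and Cast_6 they stood at -0.31 and -0.39. Both were higher in NZO, by 0.25 (SE 0.083, adjusted p = 0.0215) for Col4a1 and 0.26 (SE 0.077, adjusted p = 0.00753) for Col4a2, at means of 270 ± 55.0 and 198 ± 38.5 CPM (SD, n = 8). Endothelial markers were higher in NZO for 6 of 10 and lower for 0, with a summed level of 504 to 583 CPM in NZO, against 358 to 557 CPM elsewhere, and their part in the type IV difference was not tested. With hepatocyte, lymphocyte and keratinocyte marker sums as covariates both NZO calls were lost (0.18, adjusted p = 0.131, and 0.21, adjusted p = 0.0539). Both genes were lower in B6, by 0.23 each. The Col4a1 call in NZO was lost in 4 of the fits that left out 1 library, NZO_1, NZO_2, NZO_3 or NZO_4. In B6 the calls were lost without B6_5 or B6_7 for both genes, and for Col4a1 also without B6_2 or B6_8.

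The minor type IV chains had strain patterns of their own. Col4a6, which pairs with Col4a5 in some epithelial basement membranes, was nearly undetected in AJ: its 8 libraries had 0 to 0.187 CPM around a median of 0.0582 CPM, with no count in 2 of them. The strain medians elsewhere were 0.621 to 1.29 CPM, and of those libraries a single one, of B6, had no count. The log2 difference in AJ was -3.48 (SE 0.39, edgeR adjusted p = 1.15e-10), the largest of any collagen in any strain, and it passed in all 61 fits that left out 1 library. Col4a5 starts beside it on the other strand of chromosome X, and in AJ it differed by -0.26 (adjusted p = 0.12). WSB was highest in Col4a6, at 1.41 ± 0.51 CPM (log2 difference 1.17, SE 0.25, adjusted p = 0.000116). Col4a4, a chain of the kidney glomerular basement membrane, averaged 6.18 ± 0.719 CPM in PWK, against strain means of 3.07 to 4.71 CPM elsewhere (0.71, SE 0.19, adjusted p = 0.00221). Its levels fell into separate ranges within NOD and AJ, a split noticed after the values were seen: in NOD they were 1.70 to 2.04 CPM in NOD_1 to NOD_4 and 4.23 to 5.47 CPM in NOD_5, NOD_7 and NOD_8, and in AJ 2.58 to 3.13 CPM in AJ_1 to AJ_4 and 5.37 to 6.30 CPM in AJ_5 to AJ_8. Col4a3, Col7a1 and Col6a6 also separated the NOD and AJ libraries by these numbers, and Col4a3 those of 129 (2.14 to 2.63, then 3.42 to 5.37 CPM). Beyond the library number, the labels give no variable for this split, and every strain held 3 or 4 libraries with more Xist than Ddx3y and 3 or 4 with the reverse. With Xist and Ddx3y levels as covariates the Col4a4 difference in PWK was 0.87 (adjusted p = 2.5e-07 by edgeR). Col4a3, its partner, was highest in WSB at 4.79 ± 1.08 CPM, against 2.85 to 3.66 CPM (0.55, SE 0.14, adjusted p = 0.0011). With the fibroblast and tendon covariates the WSB calls of Col4a3 and Col4a6 were lost, at 0.10 and 0.75 (edgeR adjusted p = 0.71 and 0.0879). A processed transcript on the other strand covers 5.65% of the exonic length of Col4a3. Reads of that pair cannot be told apart if strand was not used in counting.

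Col7a1, the chain of the anchoring fibrils of skin, had the largest F of all collagens among the 8 strains (F = 38.5, adjusted p = 7e-18). In Cast it had 2.51 to 4.40 CPM around a median of 4.17 CPM, and in PWK 1.91 to 6.30 CPM around a median of 2.57 CPM. In the other 6 strains the lowest library had 9.76 CPM, so neither strain overlapped with them. The log2 difference was -1.90 (SE 0.20) in Cast and -2.07 (SE 0.20) in PWK (edgeR adjusted p = 3.12e-12 and 4.77e-13), each against a mean that held the other. In Cast it was -1.75 without the 3 low libraries and -2.20 with the fibroblast and tendon covariates. Strain 129 was highest, with 18.7 to 35.1 CPM around a median of 25 CPM (1.24, SE 0.14). NOD followed with 12.1 to 32.9 CPM (0.86, SE 0.15). For each strain but Cast and PWK, the mean it was set against held both of these low strains. The Col7a1 window shown above lies on chromosome 9, where the gene runs from 108953586 to 108984875.

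**Figure D4:**
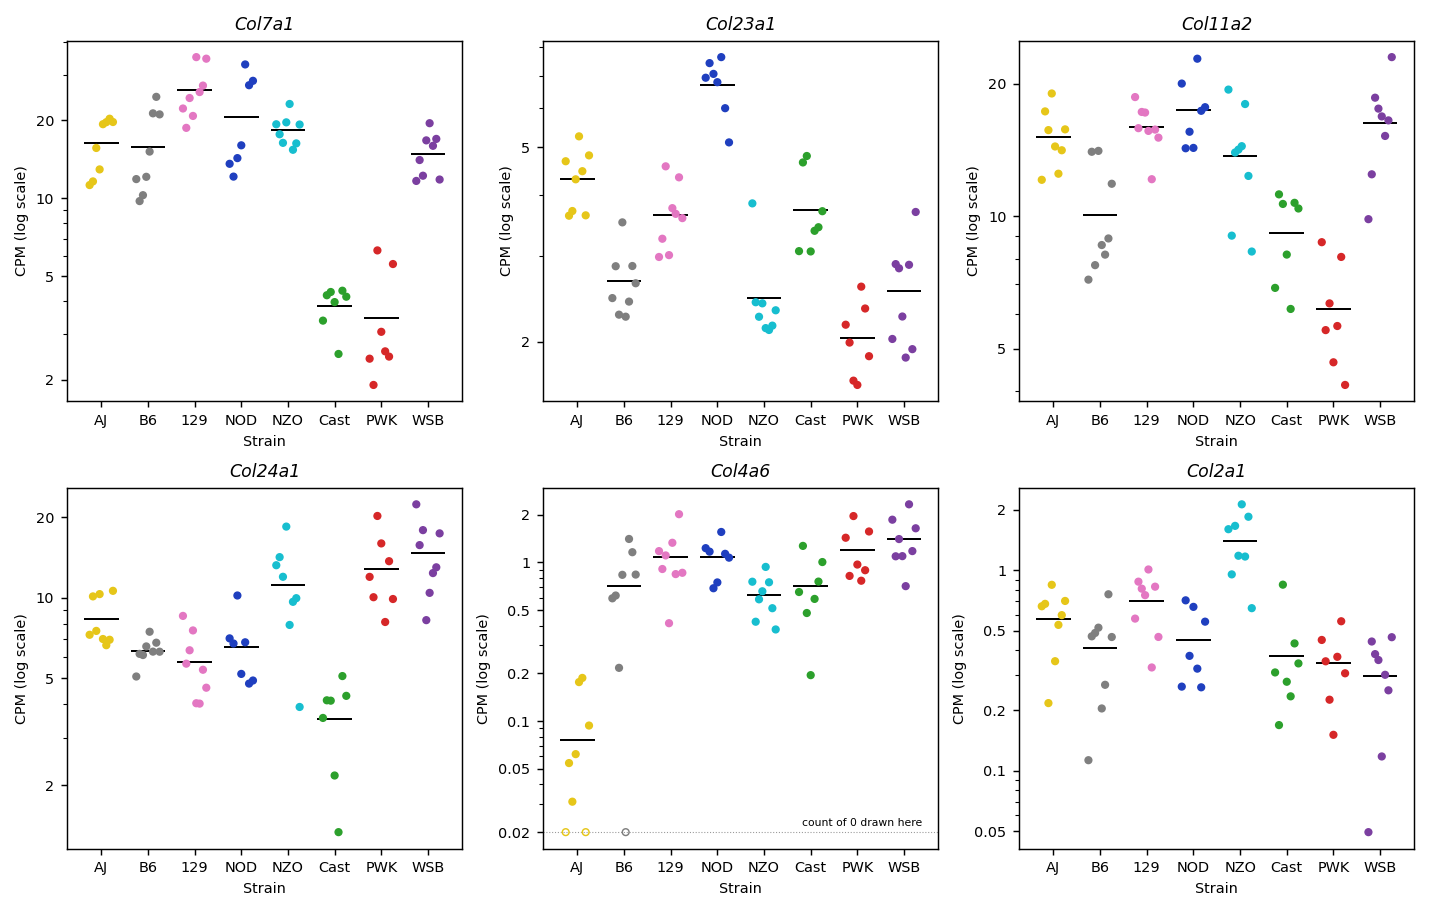
CPM per library (log scale) of Col7a1, Col23a1, Col11a2, Col24a1, Col4a6 and Col2a1 by strain; points are libraries, lines strain means, and open circles libraries with a count of 0. Cast and PWK lie apart from the other strains in Col7a1. Most NOD libraries lie above all others in Col23a1 and most NZO libraries in Col2a1. AJ is lowest in Col4a6, except for a B6 library with a count of 0.

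Among the other fibrillar chains, Col24a1 was highest in WSB and PWK. It had 8.26 to 22.4 CPM in WSB around a median of 14.4 CPM, 8.13 to 20.2 CPM in PWK around a median of 12 CPM, and 1.33 to 5.10 CPM in Cast. Its log2 differences were 1.03 (SE 0.15) in WSB, 0.81 (SE 0.16) in PWK and -1.32 (SE 0.20) in Cast. Col11a2, a cartilage fibril chain also found in muscle RNA, was lowest in PWK with 4.14 to 8.73 CPM around a median of 5.63 CPM, and 4 of 7 PWK libraries lay below every other library. Its log2 difference in PWK was -1.15 (SE 0.14, edgeR adjusted p = 1.66e-09), and in NOD, the highest strain, it was 0.57 (SE 0.12). Col2a1, the main cartilage collagen, had 0.648 to 2.13 CPM in NZO around a median of 1.39 CPM, against at most 1.01 CPM in any other library. In 6 of 8 NZO libraries it lay above all others, and its log2 difference was 1.68 (SE 0.21, adjusted p = 6.55e-09). Cartilage markers moved with it: 2 of 4 tested were higher in NZO and 0 lower, and they summed to 16.5 to 82.6 CPM in NZO, against 2.39 to 57.8 CPM elsewhere. Of the 9 listed cartilage markers, 5 were in the table. Chad, which is also in the tendon list, reached 81.1 CPM outside Cast, where Matn3 and Lect1 reached at most 1.05 and 0.286 CPM. The cartilage sum is therefore not separate from the tendon markers. The part of the cartilage markers in the Col2a1 result was not tested. With fibroblast and tendon markers as covariates the difference was 1.12 (adjusted p = 0.053).

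The fibril-associated collagens did not follow 1 order of strains. Col22a1, which is concentrated at the muscle-tendon junction, had 34.3 to 49.5 CPM in PWK around a median of 42.4 CPM and 30.9 to 43.0 CPM in 129. In Cast it had 8.59 to 27.2 CPM around a median of 17.8 CPM. Its log2 differences were 0.63 (SE 0.11) in PWK, 0.51 (SE 0.11) in 129 and -0.84 (SE 0.13) in Cast, where it was -0.52 without Cast_1, Cast_5 and Cast_6. Col14a1, a fibril surface collagen of tendon and muscle sheaths, was lowest in B6 and NOD, with medians of 15.1 and 15.8 CPM, and highest in WSB, with a median of 38.8 CPM. Its libraries ran from 10.7 to 20.8 CPM in B6, 11.1 to 24.1 CPM in NOD and 26.8 to 46.4 CPM in WSB, so WSB did not overlap with either. The log2 differences were -0.75 (SE 0.15) in B6, -0.71 (SE 0.16) in NOD and 0.65 (SE 0.13) in WSB (edgeR adjusted p = 9.89e-05, 0.000592 and 7.68e-05).

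Col14a1 was the one abundant collagen that was higher in Cast, by 0.36 (SE 0.14, edgeR adjusted p = 0.0255). It had 10.6 to 46.5 CPM there around a median of 32.7 CPM, and the lowest and the highest library of all 61 were both of Cast. The call was lost without Cast_2, Cast_7 or Cast_8 (adjusted p up to 0.154). Without Cast_1, Cast_5 and Cast_6 the difference was 0.71 (adjusted p = 6.53e-05), and with the fibroblast and tendon covariates 0.86. With hepatocyte, lymphocyte and keratinocyte marker sums as covariates it was 0.30 and not called (adjusted p = 0.0889). It was also lost without the 6 libraries high in keratinocyte markers (0.28, adjusted p = 0.125) and with limma on the deposited variance-stabilised values (0.23, adjusted p = 0.122). Col20a1, a little-studied fibril-associated chain, was also higher in Cast, by 0.94 (SE 0.12, adjusted p = 2.88e-09). Its high values came from the low-collagen libraries: Cast_5 and Cast_6 had 12.2 and 12.7 CPM, while the other 5 Cast libraries had 3.86 to 6.90 CPM and all libraries of other strains at most 5.35 CPM. Without Cast_1, Cast_5 and Cast_6 the difference was 0.42 (adjusted p = 0.0039).

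Of the cartilage type IX chains, Col9a2 was highest in PWK, with 0.787 to 1.61 CPM around a median of 1.11 CPM, against at most 1.00 CPM elsewhere. The difference on the log2 scale was 1.84 (SE 0.23, edgeR adjusted p = 1.09e-09). Col9a1, its partner chain, was lowest in PWK at 0.350 ± 0.229 CPM (-1.58, SE 0.33) and highest in B6 at 2.03 ± 0.699 CPM (1.28, SE 0.24). Both were lower in Cast, by 1.59 and 1.29. Col16a1, which associates with fibrils and microfibrils, had 1.49 to 5.38 CPM in Cast, against strain medians of 6.91 to 11.9 CPM elsewhere (-1.32, SE 0.16, adjusted p = 3.14e-10). Col12a1, a collagen of tendon and muscle fascia, fell by 0.69 in Cast (SE 0.14). With the fibroblast and tendon covariates its difference there was -0.09 (adjusted p = 0.553). In the fit without Cast_1, Cast_5 and Cast_6 the Cast differences of Col9a2, Col9a1, Col16a1 and Col12a1 were -1.22, -0.92, -0.92 and -0.49, all past the threshold.

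Col15a1, a collagen of the outer basement membrane whose loss gives mice a mild myopathy, was highest in AJ. It had 71.7 to 88.5 CPM in AJ around a median of 79.0 CPM, against 6.07 to 73.6 CPM elsewhere, and 6 of 8 AJ libraries lay above every other library. Its log2 difference was 0.69 in AJ (SE 0.15, edgeR adjusted p = 0.000237) and -1.41 in Cast (SE 0.19, adjusted p = 5.2e-09). The Cast difference without Cast_1, Cast_5 and Cast_6 was -0.83 (adjusted p = 8.29e-07). Col18a1, the other multiplexin, did not pass the test among strains, and its libraries ran from 3.69 to 84.6 CPM, both in Cast. The highest library, Cast_3, also had the largest sum of hepatocyte markers, 8007 CPM. WSB_5 and Cast_1, next highest in Col18a1 at 61.6 and 52.5 CPM, were next in hepatocyte markers at 5706 and 5320 CPM. The part of these markers in the Col18a1 level was not tested.

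Of the transmembrane collagens, Col23a1 had the second largest F. It had 5.11 to 7.63 CPM in NOD around a median of 6.93 CPM, against 1.63 to 5.26 CPM elsewhere, and 6 of 7 NOD libraries lay above every other library. On the log2 scale its difference was 1.18 (SE 0.094, edgeR adjusted p = 1.36e-15), and it was -0.78 (SE 0.11) in PWK, the lowest strain. Col17a1, a hemidesmosome protein of skin, passed in the 8-strain test, but 0 of the single strains were called. It stood at 9.77 to 19.6 CPM in the 6 libraries high in keratinocyte markers and at most 4.71 CPM in the others. Col13a1, which helps the neuromuscular junction to mature, was higher in AJ by 0.53 (SE 0.13, adjusted p = 0.00152), at a mean of 1.65 ± 0.271 CPM. Col25a1, needed in mice for motor axons to enter muscle, was higher in Cast by 0.78, at 0.365 ± 0.122 CPM, against strain means of 0.156 to 0.326 CPM. That call was lost without Cast_6 (adjusted p = 0.0517) and without the 3 low libraries (adjusted p = 0.0567).

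The unclassed Col28a1, which is found around nerves, split the strains into those with means of 1.25 to 1.39 CPM, PWK, B6, 129 and WSB, and those with 0.431 to 0.652 CPM, AJ, NZO, NOD and Cast. It was called higher in PWK, B6, 129 and WSB and lower in NOD, NZO and Cast, and in AJ its difference was -0.42 (adjusted p = 0.12). Calls were lost without NOD_8 in NOD, without WSB_4 in WSB and without any of 5 libraries in NZO. In Cast the difference was -1.10, and -0.67 without Cast_1, Cast_5 and Cast_6 (adjusted p = 0.0396). Several low-level differences rested on 1 library. Col6a5, an alternative type VI chain, was higher in PWK by 2.15 (edgeR adjusted p = 2.47e-05), but PWK_6 had 15.5 CPM and the PWK median was 0.968 CPM. Without PWK_6 the difference was 0.78 (adjusted p = 0.183). Col19a1, a fibril-associated collagen that differentiating muscle cells make, was higher in NZO by 0.87, and without NZO_7, which had 11.2 CPM against an NZO median of 1.99 CPM, it was 0.19 (adjusted p = 0.513). Col6a4 was higher in B6 by 2.54 and in WSB by 2.73, at means of 0.326 and 0.385 CPM. Without B6_1 the difference in B6 was 1.29 (adjusted p = 0.158). Lymphocyte markers were higher in WSB for 9 of 9 and in B6 for 7 of 9, with sums of 25.5 to 289 CPM in WSB and 13.6 to 252 CPM in B6, and B6_1, WSB_1 and WSB_9, the libraries with the most Col6a4, had 252, 232 and 289 CPM of them. With hepatocyte, lymphocyte and keratinocyte marker sums as covariates the WSB difference was 1.07 and not called (adjusted p = 0.151), while that in B6 was 2.24 (adjusted p = 0.00103). The WSB call was also lost with the fibroblast and tendon sums (1.76, adjusted p = 0.0715).

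In AJ, 14 of 42 collagens were higher (33.3%, against 16.8% of all genes tested) and 1 was lower (2.38%, against 14.9%). They were 4 of 6 type VI, 4 of 11 fibrillar, 3 of 3 tested network and anchoring, 2 of 4 transmembrane and 1 of 2 multiplexin genes. Among these Col7a1 was higher by 0.47, against a mean that held the low strains Cast and PWK. Col6a6 had 9.73 to 21.8 CPM in AJ around a median of 17.1 CPM, and 3 AJ libraries lay above every other library. Its log2 difference was 1.09 (SE 0.23, edgeR adjusted p = 0.000195). Col6a3, Col6a2 and Col6a1 were higher by 0.68, 0.57 and 0.57, and Cast lay within the mean they were set against. Without Cast_1, Cast_5 and Cast_6 they were higher by 0.60, 0.48 and 0.48 (adjusted p = 1.67e-06, 9.91e-05 and 9.12e-06). With fibroblast and tendon covariates those 3 calls were lost (0.39, 0.24 and 0.24, adjusted p = 0.0636, 0.339 and 0.308) while Col6a6 stayed at 1.18. Fibroblast markers were higher in AJ for 6 of 12 and lower for 0, and summed to 1819 to 2367 CPM, against 908 to 2534 CPM elsewhere. Macrophage markers were higher for 7 of 10, with a summed level of 177 to 278 CPM in AJ, against 78.1 to 381 CPM elsewhere, and their part in these results was not tested.

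In NZO, 11 collagens were higher (26.2%, against 14.6%) and 2 were lower (4.76%, against 12.7%). Besides Col2a1 and the type IV pair, they included Col11a1 at 12.9 ± 4.0 CPM (0.81, SE 0.18), Col7a1 at 18.4 ± 2.49 CPM (0.67, SE 0.15) and the chains of type VIII, a hexagonal network collagen of vessels and cornea. Col8a2 was higher by 0.59 (SE 0.13) and Col8a1 by 0.44 (SE 0.11). The mean set against Col7a1 in NZO held the low strains Cast and PWK, and a comparison without them was not made. Strain 129, the highest in Col7a1, averaged 26.1 CPM. Tendon markers were higher in NZO for 8 of 10 and lower for 0, with a summed level of 579 to 1084 CPM, against 240 to 803 CPM elsewhere. With fibroblast and tendon markers as covariates 9 of the 13 NZO calls were lost. Among these Col8a1, Col8a2 and Col24a1 stood at 0.01, 0.00 and 0.12. The others kept more of their size, with Col4a1 at 0.25, Col4a2 at 0.25, Col16a1 at 0.38, Col11a1 at 0.66, Col28a1 at -0.78 and Col2a1 at 1.12.

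In B6, 4 collagens were higher (9.52%, against 15% of all genes tested) and 8 lower (19%, against 11.2%). B6 was the strain highest in Col9a1, as given above, and Col20a1 was lower in B6 by 0.63 (SE 0.14, edgeR adjusted p = 0.000253). Col11a1, lower by 0.57, and Col16a1, lower by 0.39, each lost their call in several fits that left out 1 B6 library, B6_5 and B6_8 among them for both. Col7a1 was higher in B6 by 0.41 against a mean that held the low strains Cast and PWK, a call lost without B6_6, B6_7 or B6_8. Col11a2 was lower at an adjusted p of 0.0498, and 42 of the 61 fits that left out 1 library lost it. Type I chains had means of 200 ± 25.8 CPM for Col1a1 and 264 ± 37.3 CPM for Col1a2 in B6, the lowest after Cast, and did not pass (adjusted p = 0.068 and 0.0709).

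In 129, 8 collagens were higher (19%, against 14.2%) and 1, Col24a1, was lower (2.38%, against 11.4%). Besides Col7a1, Col9a1 was higher by 1.01 (SE 0.24), and Col24a1 differed by -0.51, a call lost without 129_6, 129_7 or 129_9. With hepatocyte, lymphocyte and keratinocyte marker sums as covariates 5 of the 9 calls in 129 were lost, and 1 of the 9 differences moved by over 1.5 times. Those 5 then stood at -0.54 for Col24a1, 0.57 for Col28a1, 0.40 for Col16a1, 0.29 for Col22a1 and 0.24 for Col12a1. In NOD, 4 were higher (9.52%, against 11.9%) and 3 lower (7.14%, against 9.79%), shares close to those of all genes. In PWK, 10 were higher (23.8%, against 20.6%) and 5 lower (11.9%, against 20.3%). In WSB, 8 were higher (19%, against 21.4%) and 5 lower (11.9%, against 17%). With fibroblast and tendon marker sums as covariates 6 of the 13 WSB calls were lost and 1 reversed direction. The highest collagen library of all, WSB_4, had a fibrillar sum of 2843 CPM, and Col16a1 in WSB was no longer called without it (0.25, adjusted p = 0.142).

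Chains that assemble into the same trimer kept their proportions more closely than their levels. Per kilobase, the ratio of Col1a1 to Col1a2 averaged 1.32 in NOD to 1.63 in NZO. Its SD within strains on the log2 scale was 0.18, while that of Col1a1 itself was 0.80 and that of Col1a2 0.66. For Col4a1 to Col4a2, strain means of the ratio ran from 1.11 in AJ to 1.30 in Cast, with an SD within strains of 0.073. Those of the genes were 0.23 and 0.21. For Col6a1 to Col6a2 the strain means of the ratio ran from 1.83 in PWK to 2.13 in NZO, with an SD of 0.11. Those of the genes were 0.55 and 0.56. The Cast libraries held both the lowest and the highest ratio of Col1a1 to Col1a2, 0.844 and 2.04. The SD of that ratio was 0.44 in Cast and 0.042 to 0.15 in the other strains. The log2 SDs above pool all strains, with Cast_1, Cast_5 and Cast_6 among the libraries.

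**Figure D5:**
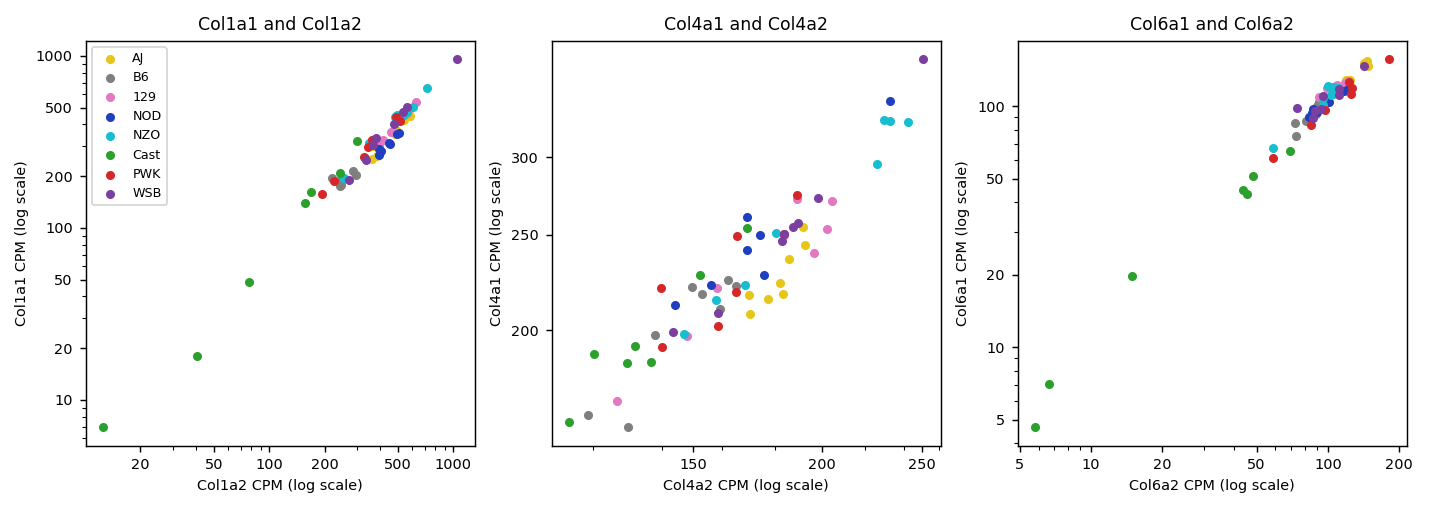
CPM per library (log scales) of Col1a1 against Col1a2, Col4a1 against Col4a2 and Col6a1 against Col6a2, coloured by strain. The chains of each pair rise together across libraries, and the lowest Cast libraries at the lower left of the type I and type VI panels are Cast_6, Cast_5 and Cast_1, in rising order.

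With all Cast libraries, 27.9% of all genes tested were lower in Cast and 33.8% higher, the background for the lists of other genes that follow. No such shares are given for the counts without Cast_1, Cast_5 and Cast_6. Of 26 tested genes that fold and process collagen, 11 were lower in Cast and 6 higher, and without Cast_1, Cast_5 and Cast_6 9 were lower and 5 higher. P3h1, a prolyl 3-hydroxylase, had 15.5 to 52.9 CPM in Cast around a median of 23.3 CPM, against 6.06 to 12.7 CPM in the others, and the groups did not overlap. Its log2 difference was 1.61 (SE 0.10, edgeR adjusted p = 2.37e-20), and 0.92 without the 3 libraries, which held its highest values, 37.7 to 52.9 CPM. Colgalt1, a collagen galactosyltransferase, was higher by 0.52 (SE 0.038), with 52.6 to 65.6 CPM in Cast, against 33.9 to 46.8 CPM. Fkbp10, a collagen chaperone, had 1.14 to 5.46 CPM, against 3.33 to 8.45 CPM (-1.05, SE 0.15, and -0.67 without the 3 libraries).

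Of 15 crosslinking and fibril assembly genes, 12 were lower in Cast and 2 higher. The lysyl oxidases Loxl2 and Loxl3 fell by 1.49 and 1.28, and by 1.09 and 0.95 without Cast_1, Cast_5 and Cast_6. The 2 higher genes were their relatives Lox (2.13, SE 0.21, edgeR adjusted p = 9.56e-13) and Loxl4 (1.01, SE 0.17), and both calls rested on the 3 libraries low in collagen. Lox had 98.6 to 280 CPM in Cast_1, Cast_5 and Cast_6 and 19.9 to 41.2 CPM in the other 4 Cast libraries, against 10.1 to 56.4 CPM in the other strains. Without the 3 libraries Lox and Loxl4 differed by 0.41 and 0.27 (adjusted p = 0.117 and 0.278), and 9 genes of the list were lower and 0 higher.

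Of 12 laminin, nidogen and other basement membrane partner genes, 8 were lower in Cast and 2 higher, and without Cast_1, Cast_5 and Cast_6 7 were lower and 2 higher. Lama2, the main muscle laminin chain, had 121 to 169 CPM in Cast around a median of 145 CPM, against 65.4 to 130 CPM (0.65, SE 0.057, and 0.49 without the 3 libraries). Nid1 and Nid2, which tie laminin to type IV collagen, were lower by 0.85 and 1.36, and by 0.86 and 1.1 without the 3 libraries. Of 9 collagen receptors, 5 were lower and 0 higher, with Itga11, an integrin chain of fibroblasts, at 1.1 to 6.0 CPM, against 6.11 to 20.7 CPM (-1.53, SE 0.16). Without the 3 libraries 3 receptors were lower and 1 higher, and Itga11 differed by -1.12. Of 13 collagen-degrading genes, 5 were lower and 0 higher, and 4 were lower and 0 higher without them. Of 19 TGF-beta pathway genes, 7 were lower and 4 higher, and without the 3 libraries 6 were lower and 1 higher. Tgfb2, a ligand of the pathway, was lower by 1.25 (SE 0.19), and by 0.70 without Cast_1, Cast_5 and Cast_6.

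In AJ, where 16.8% of all genes were higher and 14.9% lower, TGF-beta pathway genes were higher for 4 of 19 and lower for 3, near those shares. Crosslinking and fibril assembly genes were higher for 7 of 15 and lower for 0, with Lum, which encodes lumican and is also in the fibroblast list, at 43.5 CPM in AJ, against 21.9 CPM (1.03, SE 0.15, edgeR adjusted p = 9.59e-08). Degrading genes were higher for 7 of 13 and lower for 0, with Mmp3, a stromelysin, higher by 1.96 (SE 0.30). Basement membrane partners were higher for 7 of 12 and lower for 0, with Nid1 at 151 CPM, against 111 CPM (0.48, SE 0.062). Folding genes were higher for 11 of 26 and lower for 4, and among those lower P3h1 and P4ha2, a prolyl 4-hydroxylase chain, were lower by 0.58 and 0.55. The mean set against P3h1 held Cast, the strain highest in it.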

How the data were processed

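Per the labels' protocols, frozen muscle was pulverised, RNA was extracted with TRIzol and magnetic beads, spike-in RNA was added, and poly-A libraries were made with a KAPA mRNA HyperPrep kit. The authors deposited a table of estimated counts per gene, not all whole, and a table of variance-stabilised values on a log2-like scale. The submitters' processing notes name GRCm38 and DESeq2 without a role or version. The sources used here do not give the aligner, the counter or the use of strand. How reads of wild-derived strains mapped to GRCm38 was not tested.

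Estimated counts were rounded to whole numbers, filtered with filterByExpr, scaled by TMM and tested with edgeR 4.0.16 (R 4.3.3; quasi-likelihood, 53 residual degrees of freedom). The 16682 genes were adjusted together by Benjamini-Hochberg, with a threshold of 0.05. CPM values are TMM-scaled. One test asked whether the 8 strains differed, and 8 contrasts took a strain minus the mean of the 7 others, each weighted alike. These contrasts share libraries. An SE is the size of a log2 difference over the root of its F. The analysis was tested on simulated data. Exonic lengths and overlaps came from the GENCODE M21 annotation of GRCm38, and promoter windows from RefSeq. With BLAST 2.17.0, no collagen transcript had a near-identical copy (at least 95% identity over 200 bases and 50% of the shorter transcript).

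Values in every strain were considered for the 3 most abundant members of a class at 1 CPM or more and the 12 with the largest F; each strain comparison names up to 4 called members per direction, and each other list up to 2. Genes outside this rule were named after their values were seen. The members and lists were chosen with earlier results of these data known. Alternatives were DESeq2's size factors and test (DESeq2 1.42.0), limma 3.58.1 on the deposited log2 values, no filter, the replicate number as a block, a sample number in the labels, Xist and Ddx3y, or cell marker sums as covariates, and leaving out each library. Leaving out Cast_1, Cast_5 and Cast_6, or the 6 libraries high in keratinocyte markers, was chosen after seeing the data.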

Additional observations from a re-analysis of the deposited data

Results flagged for a closer look

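The highest or lowest library of a strain was set apart from the others when its gap to the nearest library was too large a part of the strain's range by Dixon's test. Of 400 combinations of a strain with a collagen gene or a class sum, 53 met it. Chance gives about 1 in 20 for normally distributed values, which raw CPM need not be, and genes of 1 library are not independent. No cause was tested. All values are CPM, with the nearest library of the same strain after each.

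WSB_4 was high in the summed basement membrane collagens (643, nearest 489), fibril-associated collagens (146, nearest 105) and unclassed collagens (2.96, nearest 1.90). Among single genes it was high in Col1a2 (1055, nearest 558), Col1a1 (958, nearest 503) and Col4a1 (378, nearest 273). It was also high in Col12a1 (45.0, nearest 24.4), Col11a1 (14.9, nearest 7.59), Col8a1 (11.9, nearest 7.70), Col8a2 (4.53, nearest 3.28) and Col28a1 (2.45, nearest 1.36).

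NZO_8 was low in Col3a1 (183, nearest 296), Col6a1 (67.5, nearest 102), Col6a2 (58.4, nearest 95) and Col5a1 (31.7, nearest 52.6), and high in Col14a1 (40.2, nearest 29.2). NOD_4 was high in summed basement membrane collagens (584, nearest 441), Col4a1 (342, nearest 261), Col4a2 (233, nearest 176) and Col5a3 (115, nearest 73.1). Library 129_8 was high in Col3a1 (477, nearest 314), Col5a1 (85.6, nearest 65.6) and Col4a5 (9.57, nearest 6.84).

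Libraries with keratinocyte markers stood apart in transmembrane collagens and Col17a1. The summed transmembrane level was 24.0 in Cast_8 (nearest 7.04), 23.2 in B6_6 (nearest 9.30) and 22.0 in WSB_7 (nearest 5.79), and Col17a1 was 18.5, 19.6 and 18.0 in them (nearest 0.332, 4.71 and 1.43). WSB_7 was also high in Col4a5 (8.95, nearest 6.38), as was NOD_5 (7.47, nearest 5.63). Col18a1 was high in WSB_5 (61.6, nearest 29.8) and B6_6 (47.4, nearest 26.9).

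In NZO, NZO_1 was high in summed transmembrane collagens (6.35, nearest 4.88) and Col23a1 (3.84, nearest 2.41), and NZO_7 in Col19a1 (11.2, nearest 2.99) and Col26a1 (0.823, nearest 0.488). In NOD, NOD_8 was low in the unclassed collagens (0.475, nearest 0.841), NOD_3 was low in Col19a1 (0.343, nearest 1.17) and high in Col24a1 (10.2, nearest 7.06), and NOD_1 was high in Col9a1 (1.27, nearest 0.809). In 129, 129_4 was high in Col6a5 (4.25, nearest 1.78), 129_2 in Col17a1 (1.49, nearest 0.702), and 129_7 was low in Col11a1 (4.59, nearest 7.90).

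PWK_6 was high in Col6a5 (15.5, nearest 2.49) and Col13a1 (1.53, nearest 1.1), and PWK_1 in Col6a4 (0.291, nearest 0.0908). Col6a4 was also high in B6_1 (1.67, nearest 0.418) and AJ_3 (0.0933, nearest 0.0441), and Col20a1 in B6_3 (4.33, nearest 2.91). In Cast, Cast_7 was high in Col6a5 (2.00, nearest 0.660), Cast_3 in Col2a1 (0.848, nearest 0.432) and Cast_6 in Col8a2 (5.73, nearest 3.26).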

How the results depend on the processing

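Of 99 alternative counts of called collagens, 96 stayed within 1.5 times the reported count. The other 3 came with the fibroblast and tendon marker sums as covariates, at 7 in B6, 8 in NZO and 7 in WSB. Of 1221 alternative values of the 111 single-gene calls, 1121 kept direction and call, 99 lost the call, and Col20a1 in WSB was 0.0042 with the same covariates (adjusted p = 0.989), a reversed direction. Leaving out each library in turn gave 40 to 41 genes called among the 8 strains, 12 to 17 in AJ, 7 to 15 in B6, 6 to 10 in 129, 5 to 8 in NOD, 11 to 16 in NZO, 27 to 29 in Cast, 14 to 18 in PWK and 11 to 16 in WSB. The B6 count of 7 came without B6_7. Of the 111 calls, 81 held in all 61 of these fits. Same-numbered libraries of different strains were not shown to be paired: over 186 pairs, the correlation of their deviations from the strain means ran from -0.56 to 0.65 with a median of 0.011, and 72 were over 0.1. With the replicate number as a block, 39 genes were called among the strains, and 13 in AJ, 11 in B6, 9 in 129, 7 in NOD, 12 in NZO, 26 in Cast, 15 in PWK and 15 in WSB. Col14a1 in Cast was then 0.32 (adjusted p = 0.063). Depth limited the rarest genes: Col6a4 had no count in 26 libraries.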
